A study of Mus musculus with 41 samples.

Results

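The thymic epithelium was compared between mice that had undergone a sham castration, an operation that leaves the testes in place, and mice that had not been operated on. Thymic epithelial cells (TEC), sorted as CD45- EpCAM+ cells of the digested thymus, gave the 9 arrays compared: 3 from unoperated mice, 3 from mice at day 4 after sham surgery and 3 from mice at day 7. They were chosen by their labels from 41 Illumina arrays, of which 24 are of TEC, and the sham effect is the mean of the 6 sham arrays minus the mean of the 3 unoperated arrays. All 9 are of male C57BL/6 mice aged 9 to 12 months, without any transgene or drug in the labels. Sham arrays of day 20 are not part of the sham effect. For comparison, values are given of TEC from castrated mice of the same age at days 4, 7 and 20, of TEC from young mice of 5 to 6 weeks, and of the non-epithelial stroma (nonTEC, CD45- EpCAM-), with 3 arrays per group except 2 for nonTEC at day 7 after sham surgery. The series asks how thymic stroma changes with age and after castration, when the thymus regrows for a time, and the sham mice control for the operation in it. Nothing in the labels tells whether the 3 arrays of a group stand for 3 animals, pools or repeat runs, so the spread between arrays may be technical. The p-values and standard errors rest on a spread pooled within the groups of all 24 TEC arrays, not on the 9 arrays alone. For differences between fractions it is pooled over all 41 arrays.

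TEC build the niche in which T cells develop. Cortical TEC drive the commitment and positive selection of thymocytes, while medullary TEC display tissue-restricted antigens under Aire and Fezf2 and delete self-reactive cells. Surgery and wounding set off an acute-phase response, in which interleukin 6 and related cytokines act through the shared receptor subunit gp130 (gene Il6st) and the transcription factor STAT3, and raise serum amyloid A, haptoglobin and orosomucoid in liver and in epithelia, with Socs3 as the feedback inhibitor. Stress also raises glucocorticoids, to which the thymus is sensitive.

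Of 8195 genes tested, 247 passed an adjusted p of 0.05 (3.01%; limma with Benjamini-Hochberg adjustment), 78 of them higher after sham surgery (0.952%) and 169 lower (2.06%). Most differences were small. On the log2 scale the median was 0.78 among the rises and -0.66 among the falls, and 27 of the 247 reached a change of 1, which is 2-fold (19 rises and 8 falls). Exosc2, a subunit of the RNA exosome, fell most and by far most clearly. Acute-phase genes were among the rises, and the receptor subunit Il6st, the early-response genes Zfp36 and Jun and the NF-kB regulator Nfkbiz among the falls. The 6 sham and 3 unoperated arrays did not overlap for 475 genes (5.8% of those tested), and 175 genes (2.14%) were both called and without overlap, 49 higher and 126 lower. Over all genes tested the median difference was -0.01, with 3977 genes higher and 4218 lower.

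**Figure D1:**
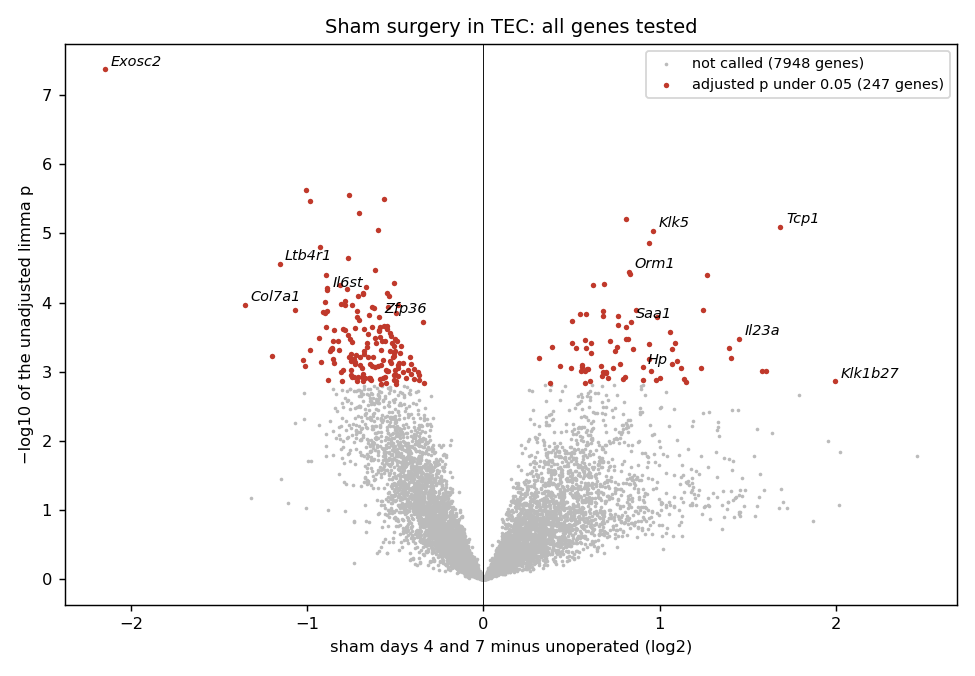
Each point is 1 of 8195 genes in TEC, with the difference of sham days 4 and 7 minus unoperated on the log2 scale across and −log10 of the unadjusted limma p upward. The 247 genes past an adjusted p of 0.05 are red, and Exosc2, at -2.15, stands above all others.

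How many genes were called rested on a few arrays. The unoperated group was the most variable of the 8 TEC groups, with a median standard deviation per gene of 0.39 against 0.12 to 0.25 in the others, and its arrays 2 and 3 correlated at 0.798, the lowest of any pair within a TEC group. Standard errors and p-values pool the spread over the 8 groups, and so can understate that of the unoperated arrays. Each unoperated array correlated better with an array of operated mice (0.973, 0.919 and 0.984 for arrays 1 to 3) than with either of the others in its group (0.798 to 0.909). For arrays 1 and 2 these were sham day 7 array 2 and sham day 4 array 2, and for array 3 castrated day 4 array 3. The count was 3 without unoperated array 2, 715 without unoperated array 1 and 971 without unoperated array 3, where rises outnumbered falls (641 against 330). Without sham day 7 array 2 it was 48. In a fit of only the 9 arrays compared no gene passed (lowest adjusted p 0.133, limma), though 863 had an unadjusted p under 0.05, and without the 6 day 20 arrays, whose spread was the lowest, 10 passed. The 41 called genes that were chosen for naming had the same sign in every fit, and none passed in all of them. The agreement in sign follows in large part from the choice. A gene whose sham and unoperated arrays do not overlap keeps its sign when an array is left out. In the text that follows, "rose" and "fell" mean that a gene passed in the fit of all 24 TEC arrays, with these limits.

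**Figure D2:**
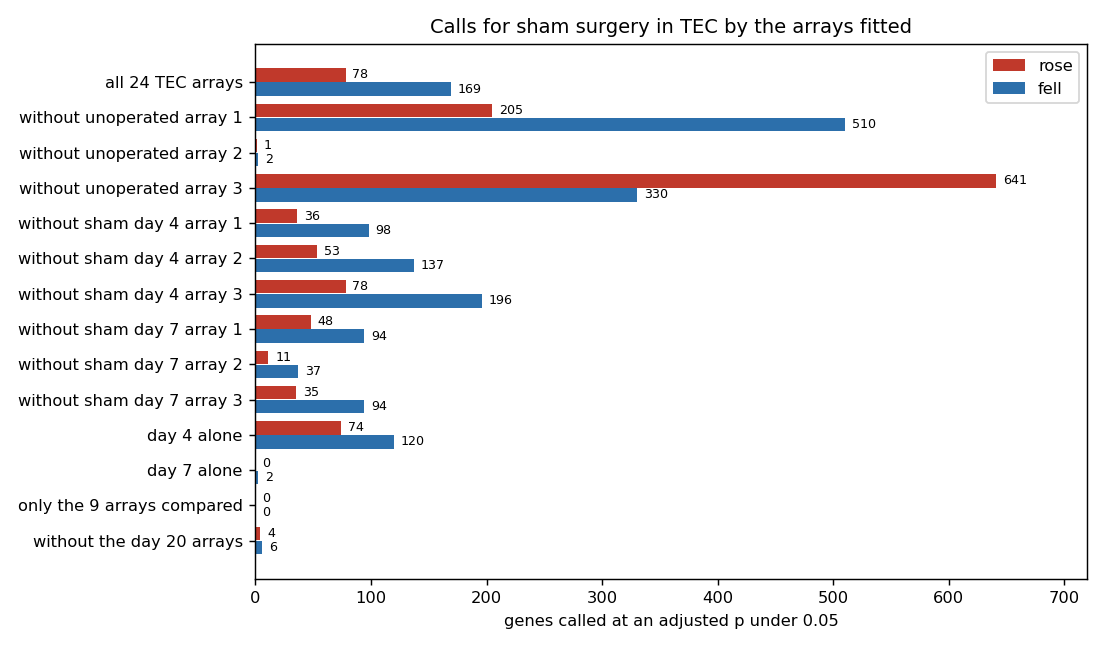
Bars give the number of genes called for sham surgery in TEC, rises in red and falls in blue, in the fit of all 24 TEC arrays (78 and 169) and in fits that leave out the arrays named or use 1 day alone. Leaving out unoperated array 2 left 1 rise and 2 falls, and leaving out unoperated array 3 gave 641 rises and 330 falls.

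The sorted cells carried the markers of TEC. Levels are given as normalized log2 intensities of 1 probe per gene. The keratins Krt8 (13.15 in unoperated and 13.21 in sham TEC) and Krt14 (14.10 and 14.07) and the medullary regulator Aire (11.94 and 11.89) were bright. The means of the cortical genes Psmb11 (6.69 and 6.79) and Prss16 (6.30 and 6.48) were near the median of all values, 6.73. Their arrays were uneven, with standard deviations of 1.33 and 0.94 for Psmb11 and 1.55 and 0.86 for Prss16. They were not typical of the cortical list, where 10 of 15 genes measured lay above the median in both groups. The mean over the 15 was 8.76 to 9.40 in the unoperated and 8.83 to 9.55 in the sham arrays. Foxn1, the master regulator of TEC, was dim (4.76 in both) and not tested. Sham day 4 array 3 stood apart. Its mean over the thymocyte markers was 9.27 against 6.86 to 7.00 in the other 5 sham arrays, over the fibroblast markers 8.98 against 7.48 to 7.77, and over the endothelial markers 8.51 against 6.27 to 6.76. Without this array 274 genes were called, 194 of them among the 247. The arrays also differed in myeloid and granulocyte markers, whose mean over 16 genes was 7.24 to 8.02 in the unoperated and 8.07 to 8.60 in the sham arrays, without overlap. Over 7 B-lineage markers it was 6.46 to 6.58 and 6.66 to 6.99, also without overlap, and over 5 pan-leukocyte markers 10.32 to 11.06 and 10.75 to 11.58. The part that these cells play in the results was not tested. In RNA from sorted populations, fewer cells of a type and less RNA per cell cannot be told apart.

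Exosc2 encodes a cap subunit of the RNA exosome, which trims and degrades RNA. Its level was 8.48, 8.38 and 8.52 in the unoperated arrays, 6.08, 6.09 and 5.96 at day 4 and 7.27, 6.38 and 6.11 at day 7. Every sham array lay more than 1 log2 unit below every unoperated one, and sham day 7 array 1 was the highest of the 6. The gene fell by 2.15 ± 0.25 (SE; adjusted p = 0.000351, limma). Castrated mice of the same days had the low level too, 6.23 ± 0.74 at day 4 and 5.98 ± 0.31 at day 7 (SD, n = 3), while at day 20 it was 8.23 ± 0.09 after sham surgery and 8.04 ± 0.14 after castration, and young mice were at 8.53 ± 0.11. All 12 arrays of operated mice at days 4 and 7, castrated or sham, lay between 5.38 and 7.27, and the other 12 TEC arrays between 7.91 and 8.63. The gene passed in each fit but that of the 9 arrays alone (adjusted p = 0.133). A second, dimmer Exosc2 probe did not show this fall: it differed by 0.35, in the other direction, with an unadjusted limma p of 0.221. With the mean of both probes the difference was -0.90.

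Of the acute-phase and interleukin 6 response genes, 18 of 28 listed were tested, and 3 rose and 1 fell, beside 0.952% and 2.06% of all genes tested. These shares are the background for the counts of the other lists too. Saa1, serum amyloid A, was at 9.75, 9.05 and 10.15 in the unoperated arrays, 10.49, 10.38 and 10.86 at day 4 and 10.47, 10.34 and 10.38 at day 7. Orm1, orosomucoid, was at 8.61, 8.23 and 8.72 unoperated, 9.33, 9.45 and 9.80 at day 4 and 8.94, 9.28 and 9.26 at day 7. Hp, haptoglobin, which binds free haemoglobin, was at 7.75, 7.44 and 7.84 unoperated, 8.32, 8.38 and 9.53 at day 4 and 8.16, 8.42 and 8.66 at day 7. In all 3 genes the sham arrays lay above the unoperated ones, with the mean of day 4 above that of day 7. Young unoperated TEC had means above those of both sham days, at 11.29 for Saa1, 9.74 for Orm1 and 9.04 for Hp. The rises were 0.84 ± 0.18 for Saa1 (SE; adjusted p = 0.0246, limma), 0.83 ± 0.16 for Orm1 (0.0174) and 0.90 ± 0.23 for Hp (0.0403). Hp was higher on each of its 3 probes, by 0.90, 0.99 and 1.23. Saa1 was not: its second probe, dim at a mean of 5.47, differed by -0.20. Sham day 4 array 3 was the highest in all 3 genes, and without it the rises were 0.76, 0.76 and 0.71 and passed.

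On the receptor side of the pathway 1 gene moved the other way. Il6st, the gp130 subunit, was at 8.34, 9.09 and 8.53 unoperated, 7.87, 7.25 and 7.44 at day 4 and 8.29, 7.64 and 8.14 at day 7, so that the highest sham array fell just short of the lowest unoperated one. It fell by 0.89 ± 0.18 (adjusted p = 0.0201, limma). In young unoperated TEC its mean was 7.74, also below the older unoperated arrays. Socs3, the feedback inhibitor, was at 13.37, 13.62 and 13.31 unoperated and 12.57 to 13.07 in the sham arrays, without overlap, a difference of -0.60 that did not pass (adjusted p = 0.0644). The differences were -0.42 for Stat3 (adjusted p = 0.126) and -0.79 for Osmr, the oncostatin M receptor (0.21), and neither passed. The list as a whole had a median of -0.15, with 8 of 18 genes higher. None of its calls passed at day 7 alone, without unoperated array 2, or without the day 20 arrays.

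The region before the start of 4 called genes of this and the next group is shown because the pathway's factors bind short motifs in promoters. The 250 bases upstream are RefSeq sequence in build GRCm38.p6, 5′ to 3′ on the gene's strand, with motif matches in capitals. On both strands the search used TTCNNNGAA for STAT, TTNNGNAA for C/EBP, GGGNNNNNCC for NF-kB and TGANTCA for AP-1, which are found in 7.02%, 36.9%, 45.8% and 6.75% of the 32841 windows of this length.
Saa1 promoter, chr7:46742981-46743230 (- strand): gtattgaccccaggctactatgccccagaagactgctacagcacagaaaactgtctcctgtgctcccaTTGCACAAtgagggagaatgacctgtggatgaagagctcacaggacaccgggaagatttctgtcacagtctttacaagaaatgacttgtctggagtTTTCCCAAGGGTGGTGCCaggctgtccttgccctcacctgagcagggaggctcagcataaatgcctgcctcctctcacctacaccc
Il6st promoter, chr13:112463820-112464069 (+ strand): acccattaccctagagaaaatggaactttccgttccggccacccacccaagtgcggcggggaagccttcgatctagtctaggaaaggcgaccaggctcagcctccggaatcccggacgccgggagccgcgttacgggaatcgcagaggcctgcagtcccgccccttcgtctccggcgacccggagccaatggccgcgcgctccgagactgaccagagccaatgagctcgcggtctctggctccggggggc
Zfp36 promoter, chr7:28379229-28379478 (- strand): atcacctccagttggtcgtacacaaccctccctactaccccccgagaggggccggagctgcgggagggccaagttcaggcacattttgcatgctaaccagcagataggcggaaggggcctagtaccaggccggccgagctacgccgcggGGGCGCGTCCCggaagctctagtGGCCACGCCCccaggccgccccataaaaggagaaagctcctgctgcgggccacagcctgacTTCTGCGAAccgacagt
Jun promoter, chr4:95052223-95052472 (- strand): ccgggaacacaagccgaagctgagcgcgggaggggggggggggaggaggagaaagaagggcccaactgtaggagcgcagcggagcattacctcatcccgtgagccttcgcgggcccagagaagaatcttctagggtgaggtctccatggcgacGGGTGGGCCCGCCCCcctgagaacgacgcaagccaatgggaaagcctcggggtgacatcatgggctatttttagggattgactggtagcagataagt
The Saa1 window holds 2 C/EBP matches, 182 and 86 bases before the start, and 1 NF-kB match 78 bases before it, directly after the second C/EBP match. The Zfp36 window holds 1 STAT match, 17 bases before the start, and 3 NF-kB matches of which 2 overlap, and the Jun window 3 overlapping NF-kB matches. No match was found in the Il6st window. These are matches of letters, and binding was not measured.

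Immediate early genes respond within minutes to growth factors and stress. Of 18 tested, 2 fell and none rose, beside 2.06% and 0.952% of all genes tested, and 3 of 18 had a positive difference (median -0.22). Zfp36, which destabilizes cytokine mRNA, was at 14.48, 14.58 and 14.51 unoperated and between 13.81 and 14.13 in the 6 sham arrays. Jun, an AP-1 subunit, was at 11.86, 12.62 and 11.84 unoperated and 11.08 to 11.88 in the sham arrays, where sham day 7 array 3 overlapped the unoperated ones. They fell by 0.59 ± 0.13 (adjusted p = 0.0225, limma) and 0.69 ± 0.18 (0.0457). Young unoperated TEC had means below those of both sham days, at 13.21 for Zfp36 and 10.80 for Jun. Fosb differed by -0.80 (adjusted p = 0.0646) and Fos by 0.25 (0.857). Fos was uneven within groups, at 12.87, 9.58 and 13.30 in the unoperated arrays and at 8.95 in sham day 4 array 3 against 12.61 to 13.00 in the other sham arrays. The 2 calls were lost without unoperated array 2, without sham day 7 array 2, with only the 9 arrays and without the day 20 arrays.

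**Figure D3:**
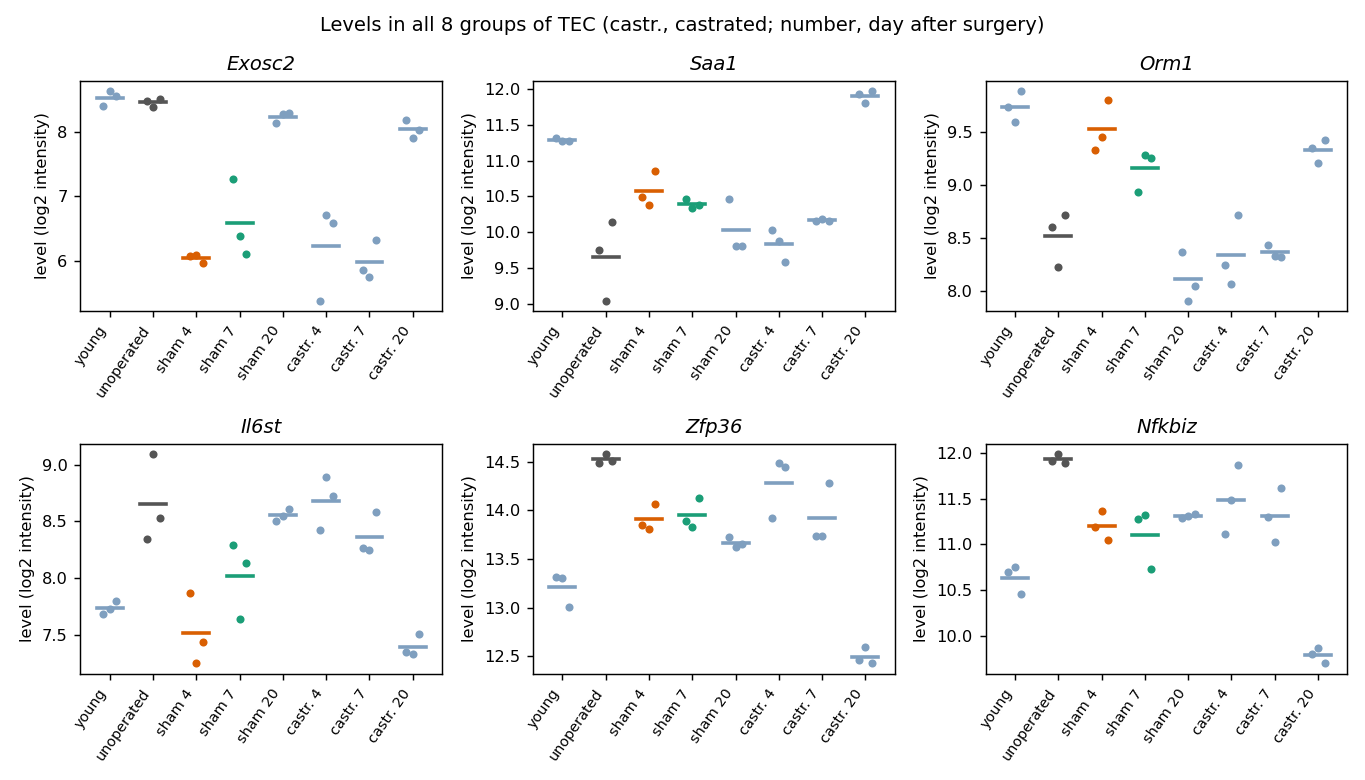
Points are single arrays and lines group means of normalized log2 intensity in the 8 TEC groups, for Exosc2, Saa1, Orm1, Il6st, Zfp36 and Nfkbiz. Unoperated arrays are grey, sham day 4 orange and sham day 7 green, and the other 5 groups are blue. Exosc2 was low in all operated groups of days 4 and 7, whereas Orm1 was high in sham and not in castrated mice of those days.

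No glucocorticoid-induced gene passed among 21 tested (6 higher, median -0.22). Tsc22d3 and Fkbp5, classical targets of the glucocorticoid receptor, differed by -0.37 (adjusted p = 0.0622, limma) and -0.36 (0.0919), and the metallothionein gene Mt1 by -0.28 (0.262). The other Tsc22d3 probes, dimmer at means of 6.94 and 5.49, did not show this, with differences of 0.94 and 0.01. Fkbp5 was at 8.84 to 9.06 in the unoperated and 8.49 to 8.68 in the sham arrays, without overlap. Among 20 NF-kB target genes 1 fell, Nfkbiz, an atypical inhibitor of NF-kB that is itself induced by interleukin 1. It was at 11.91, 11.98 and 11.88 unoperated, 11.19, 11.37 and 11.05 at day 4 and 11.27, 11.32 and 10.73 at day 7. Every sham array was lower than every unoperated one, and the gene fell by 0.77 ± 0.15 (adjusted p = 0.0198). Its mean in young unoperated TEC, 10.64, was lower than that of either sham day. The chemokine gene Cxcl2 was higher by 0.68 without passing (0.0687). Of 28 interferon response genes only Ifit2 fell, by 0.74 (0.0225), and none rose. Over all genes tested 2.06% fell, so 1 of 28 is close to the background. Heat shock, unfolded protein response, p53 and apoptosis, antioxidant, and hypoxia and glycolysis genes had no calls, with medians of 0.14, 0.28, 0.10, 0.00 and 0.03.

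Of the genes that define TEC subsets, few passed. Among 21 medullary genes Cd40, the receptor for CD40 ligand from thymocytes, rose by 0.52 ± 0.12 (adjusted p = 0.0325, limma), from 11.38, 11.17 and 11.84 in the unoperated arrays to between 11.81 and 12.14 in the sham arrays. The lowest sham array lay just below the highest unoperated one. Cd80, its partner in costimulation of T cells, was higher by 1.33 without passing (0.0964), at 8.43, 8.05 and 6.54 unoperated and 8.48 to 9.38 after sham surgery. Aire differed by -0.05 (0.903) on its brightest probe and Fezf2 by 0.13 (0.558). The other Aire probes disagreed, with a difference of 1.64 on the dimmest and -0.26 on the third. No gene passed among 13 cortical genes (median 0.06), where Ccl25, a chemokine that draws thymocyte progenitors, differed by 0.60 (0.13).

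Lists of genes that single medullary cells express had mostly positive differences but almost no calls. All 13 tuft cell genes had a positive difference (median 0.50) and none passed. Alox5ap, needed for leukotriene synthesis, came nearest, at 10.67, 9.32 and 11.06 unoperated and 10.89 to 12.05 after sham surgery (1.04; adjusted p = 0.0552, limma). A second Alox5ap probe, nearly as bright and not the one tested, differed by 1.24 with an unadjusted limma p of 0.000114. Of 17 Aire-dependent tissue antigens 16 were higher (median 0.47) and none passed. Both medians dropped to 0.06 without unoperated array 2. Without unoperated array 3 the Aire-dependent median was 0.99, with 13 of 17 called. That fit called 971 of all 8195 genes tested, 641 of them higher, so the background was larger too. Of 10 neuroendocrine genes 9 were higher (median 0.53) and Pomc, the precursor of corticotropin and melanocortins, rose by 1.58 ± 0.41 (0.0413), from 6.90, 6.58 and 4.86 to between 7.53 and 7.87. Pomc passed in 2 of the 9 fits that left out 1 array. Its 3 unoperated arrays spread over 2 log2 units, while the 6 sham arrays were close together. Castrated day 4 arrays 2 and 3, at 5.06 and 4.56, were low like unoperated array 3, while castrated day 4 array 1 was at 7.00.

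Myeloid and granulocyte markers, which the CD45- gate is set to leave out, were the list with the highest median (0.68), and all 11 tested were higher. Only C1qb, a complement subunit made by macrophages, rose, by 1.004 ± 0.27 (adjusted p = 0.0457, limma). It was at 6.72, 6.67 and 7.51 unoperated, 7.73, 7.96 and 9.34 at day 4 and 7.29, 7.77 and 7.75 at day 7, and without sham day 4 array 3 the rise was 0.76 and passed. C1qb passed in only 4 of the 9 fits that left out 1 array, and not without unoperated array 2 (adjusted p = 0.135, limma). Lyz2, lysozyme of macrophages and granulocytes, was at 9.87, 9.64 and 5.15 unoperated and 10.17 to 11.11 after sham surgery (2.46; 0.139), so that its mean difference came largely from unoperated array 3. The median of the list was 0.20 without unoperated array 2. Spic, a transcription factor of red pulp macrophages, was among the largest rises (1.24; 0.0225). Fibroblast, endothelial, pericyte, thymocyte, pan-leukocyte, B-lineage and red cell markers had no calls, with medians from -0.29 to 0.47.

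**Figure D4:**
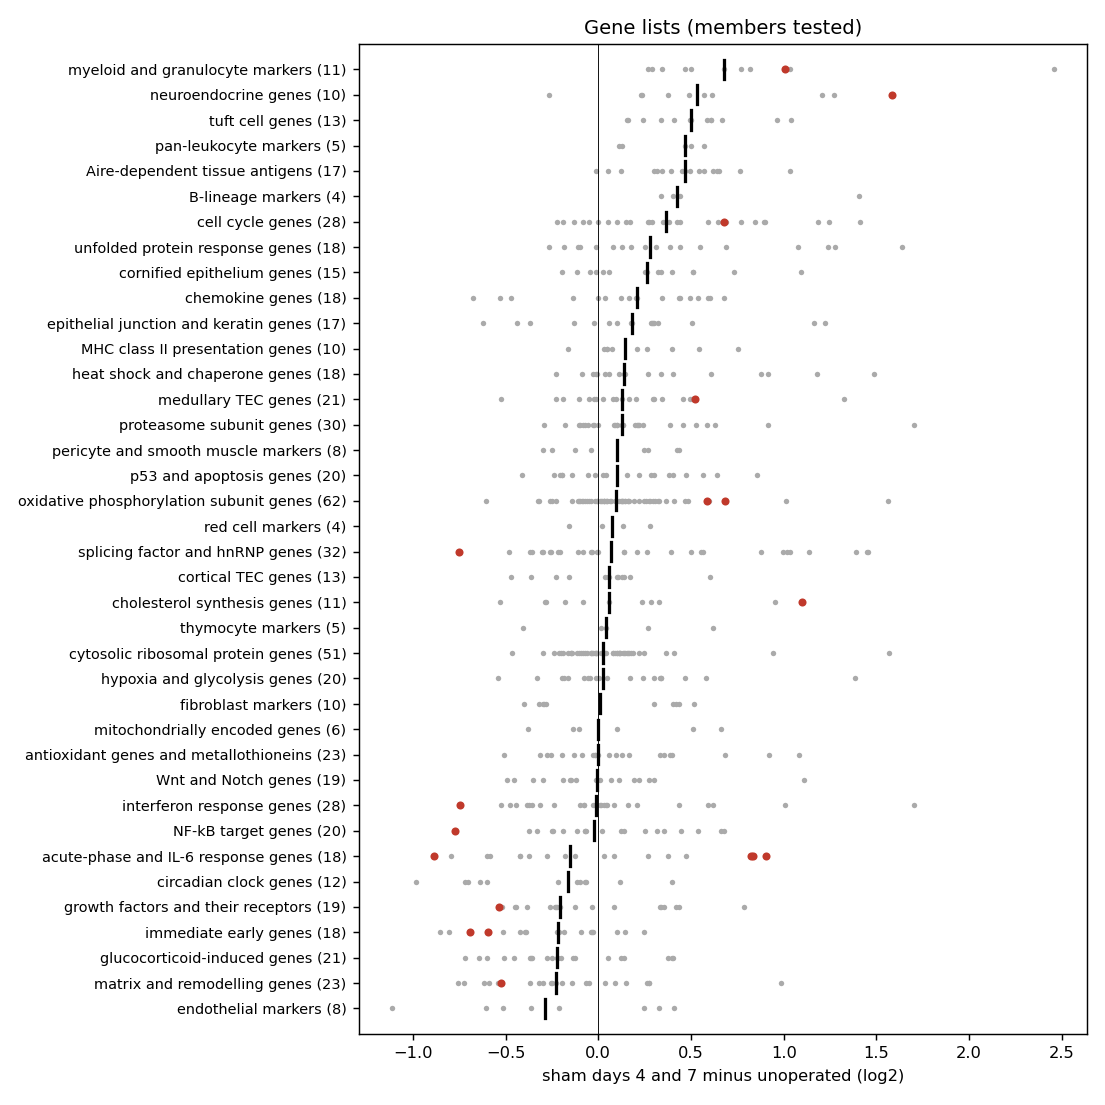
Each row is a gene list with the number of members tested, each point 1 member with its difference of sham days 4 and 7 minus unoperated on the log2 scale, red where it passed an adjusted p of 0.05, and black ticks are medians. Medians run from -0.29 for endothelial markers to 0.68 for myeloid and granulocyte markers, and no list has more than 4 members called.

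Lists of growth and metabolism had few calls or none. Of 28 cell cycle genes 22 were higher (median 0.36; 0.63 at day 4 and 0.11 at day 7), and Aurka, the mitotic kinase Aurora A, rose by 0.68 ± 0.18 (adjusted p = 0.0418, limma). Its levels were 7.60, 7.07 and 7.69 unoperated, 8.47, 8.56 and 8.73 at day 4 and 7.31, 7.73 and 7.99 at day 7, so the rise lay at day 4, though the difference between the days did not pass (0.213). Without sham day 4 array 3 Aurka did not pass (0.64; 0.0583). Egfr, the receptor for epidermal growth factor, fell by 0.53 ± 0.12 (0.0283), from 10.29 to 10.57 in the unoperated arrays to 9.83 to 9.94 in the sham arrays. Its 5 probes ranged from -0.67 to 0.06. Of 62 oxidative phosphorylation subunits Sdhb (0.68) and Atp5h (0.59) rose, and 0.952% of all genes tested did. A second Sdhb probe differed by 0.28. Ebp of cholesterol synthesis rose by 1.10, the splicing factor gene Srrm2 fell by 0.75, and Mmp14, a membrane-bound matrix protease, fell by 0.53. Cytosolic ribosomal protein genes (51 tested, median 0.03) and proteasome subunits (30, median 0.13) had no calls. The same held for cornified epithelium (15, median 0.26), epithelial junction and keratin (17, 0.18), chemokine (18, 0.21), MHC class II presentation (10, 0.14), Wnt and Notch (19, -0.01), mitochondrially encoded (6, 0.00) and circadian clock genes (12, -0.17).

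The 12 largest rises among genes without overlap were of mixed function. Klk1b27, a tissue kallikrein, was at 9.60, 8.96 and 7.15 unoperated and 10.28 to 10.83 after sham surgery, a rise of 1.995 ± 0.54 (adjusted p = 0.0468, limma). Its second probe gave 0.48 with an unadjusted p of 0.141, and near-identical kallikrein genes may share probes with it. Tcp1, a subunit of the cytosolic chaperonin, was at 9.05, 7.84 and 7.91 unoperated and 9.56 to 10.20 after sham surgery, a rise of 1.69 ± 0.28 (0.00748). In both genes the unoperated arrays spread more than the sham arrays. A second Tcp1 probe, dim at a mean of 4.65, differed by -0.08. The other rises were 1.602 for Gpx6, a glutathione peroxidase, 1.58 for Pomc, 1.45 for Il23a, a subunit of interleukin 23, 1.39 for Serpinb2, an inhibitor of plasminogen activators, 1.27 for Khdc1c, 1.24 for Spic, 1.23 for Ceacam15, 1.09 for Grap, 1.07 for Skint6 and 1.07 for Pyy, a gut hormone. The second, dimmer probes of Gpx6 and Khdc1c differed by 0.35 and 0.04. Of the 9 fits that left out 1 array, Klk1b27 passed in 1, Gpx6, Pomc and Ceacam15 in 2 each, and Skint6 in 3. Serpinb2 passed in 4, Grap and Pyy in 5 each, Il23a in 6, Spic in 7, Tcp1 in 8 and Khdc1c in 9.

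After Exosc2 the largest fall without overlap was that of Col7a1, the collagen of anchoring fibrils below stratified epithelia. It was at 8.53, 9.39 and 8.48 unoperated, 7.02, 7.46 and 7.46 at day 4 and 7.82, 7.28 and 7.63 at day 7, and fell by 1.35 ± 0.28 (adjusted p = 0.0225, limma). Ltb4r1, the leukotriene B4 receptor, fell by 1.16 ± 0.21 (0.0162), from 8.52 to 9.18 unoperated to 7.34 to 8.11 after sham surgery. Cluh, which binds mRNAs of mitochondrial proteins, was at 7.14, 7.06 and 6.72 unoperated, 5.82, 5.75 and 5.30 at day 4 and 6.42, 6.31 and 6.34 at day 7, and fell by 0.98 ± 0.15 (0.00562). In Cluh all day 4 arrays lay below all day 7 arrays, which lay below the unoperated ones, but the difference between days did not pass (0.28). The other differences were -1.07 for Lins1, -1.01 for Sobp, -0.99 for Gli2, a transcription factor of Hedgehog signalling, -0.93 for Dgcr8, which processes microRNA precursors, -0.93 for Arhgef5, -0.92 for Foxj2, -0.91 for Nlgn2 and -0.90 for Fam219b.

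**Figure D5:**
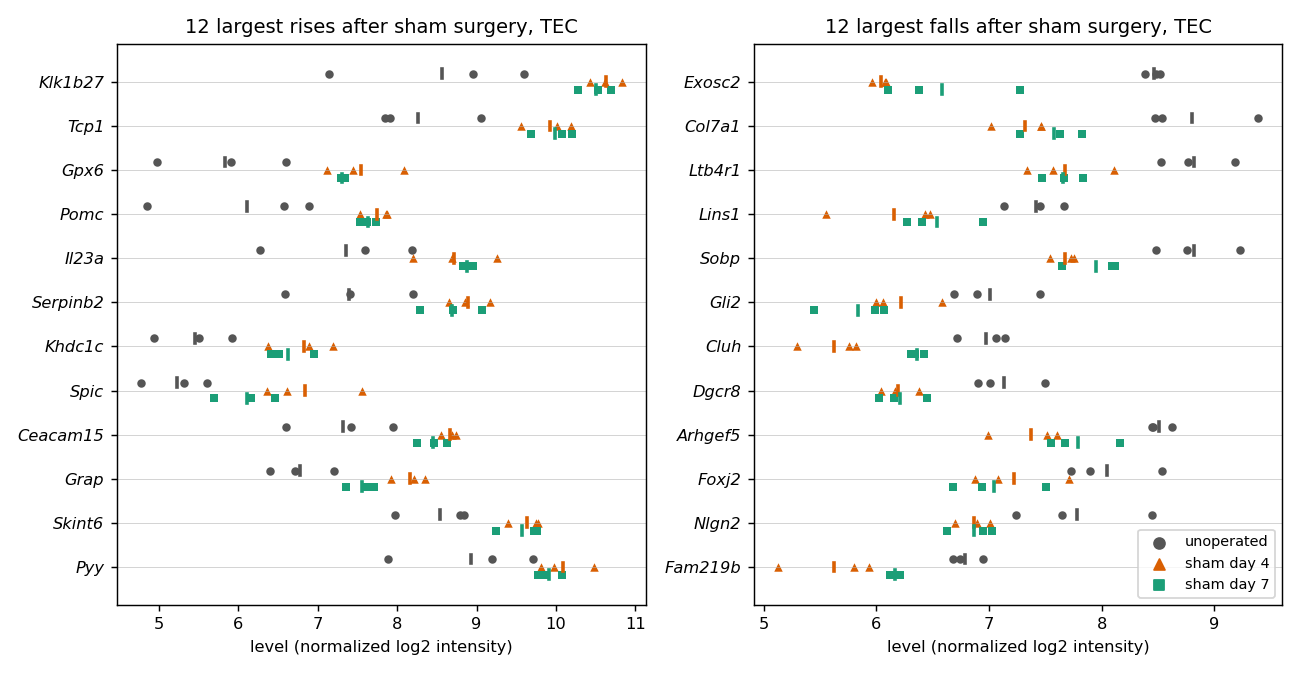
Points are single arrays (grey circles unoperated, orange triangles sham day 4, green squares sham day 7) and ticks group means of normalized log2 intensity, for the 12 largest rises and 12 largest falls without overlap. Exosc2 has the widest gap for its spread, and Klk1b27 and Pomc the widest spread among unoperated arrays.

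The days were also compared. Against unoperated TEC, 194 genes were called at day 4 (2.37%), 74 of them higher (0.903%) and 120 lower (1.46%), and 2 at day 7 (0.0244%), Exosc2 (-1.87; adjusted p = 0.0215, limma) and Ctdsp2 (-0.83; 0.0229). Of the 247 genes, 159 differed more in size at day 4 and 88 more at day 7. The difference between the days was tested directly, and no gene passed (lowest adjusted p 0.201, limma), with 623 genes at an unadjusted p under 0.05, so the larger count at day 4 does not show that the days differ. Without sham day 4 array 1, 10 genes passed. At day 20 sham mice differed from unoperated mice in 4006 genes (48.9%), and these arrays were not averaged with the others. Their spread was the lowest of the 8 TEC groups (median standard deviation 0.12). In this count the operation, the time since it and any difference of the day 20 arrays as a set cannot be told apart.

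Castrated mice of days 4 and 7 were operated on at the same days. Castrated minus sham shares the sham arrays with the sham effect, so a gene that is high in the sham arrays by chance tends to be low in that difference, and each is given side by side only. It called 731 genes (8.92%). Orm1 was at 8.52 in unoperated, 9.53 and 9.16 in sham and 8.34 and 8.36 in castrated mice at days 4 and 7, and castrated minus sham was -0.99 ± 0.13 (adjusted p = 0.0016, limma). Hp was at 7.67, 8.74 and 8.41, and 7.29 and 7.83 in the same order (-1.02; 0.0069), and Il6st at 8.66, 7.52 and 8.02, and 8.68 and 8.36 (0.75; 0.0079). For Orm1 both castrated means lay below the unoperated one. For Il6st the castrated mean of day 7 lay between the unoperated and the sham mean. Saa1 was at 9.65, 10.57 and 10.40, and 9.84 and 10.17 (-0.48; 0.0487). For Tcp1 (8.27, 9.92 and 9.99, and 9.45 and 10.29) and Col7a1 (8.80, 7.32 and 7.58, and 7.49 and 7.10), as for Exosc2, both operated groups lay on the same side of the unoperated mean, and castrated minus sham did not pass (-0.09, -0.15 and -0.21).

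The sham effect in TEC was compared with that in nonTEC over 8487 genes measured in both. In nonTEC 94 genes were called (1.11%), 77 higher (0.907%) and 17 lower (0.2%), and the difference of the effects passed for 170 genes (2%), 24 of them with the higher value in TEC (0.283%) and 146 with the lower (1.72%). Exosc2 again stood out: in nonTEC it was at 8.29, 8.47 and 8.62 unoperated and 8.61 to 8.97 after sham surgery, with no fall, and the effects differed by -2.52 ± 0.29 (adjusted p = 6.72e-06, limma). Col7a1 differed by -1.56 (-1.35 in TEC and 0.21 in nonTEC). The count was 1 (Exosc2) with only the arrays compared, 617 without unoperated TEC array 1 and 30 without nonTEC sham day 7 array 1.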

How the data were processed

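Expression was measured on Illumina arrays of biotin-labelled cRNA, per the labels' protocols. The deposited values are normalized log2 intensities, 1 table for all arrays. The base of the logarithm was taken as 2 from the highest TEC value of 14.67. Array medians were 6.68 in TEC, and quantiles were shared within each fraction, not between them. The submitters' processing notes name limma, and the background correction is not given in the sources used here.

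Genes were named through the platform's annotation (20825 of 20836 listed probes had 1 gene). The brightest probe on average stood for a gene, which was tested where at least 1 group mean exceeded 6.73, the median, which kept 8195 of 12176 genes. Group means of the 24 TEC arrays were fitted in limma 3.58.1 (R 4.3.3; 16 residual degrees of freedom), with a mean-variance trend, Benjamini-Hochberg adjustment and a threshold of 0.05. Differences between fractions used all 41 arrays. The code was tested on simulated data in which each gene had the same spread in all groups. In these data the unoperated group varied more, so that test does not give the rate of false calls here. Precision is limited by the few arrays per group.

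The named genes were the 12 largest called changes in each direction without overlap, up to 4 called members of each of 38 lists (otherwise 2), 5 per direction between fractions, and a fixed set. The text prints part of these. The members and lists were chosen with earlier results of these data known. Nr3c1 was not analysed here. Genes such as Osmr, Stat3, Fosb, Lyz2 and Ctdsp2 were named after their values were seen. Alternatives were other filters, normalizations, probe rules, weights, trends, covariates and sets of arrays.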

Additional observations from a re-analysis of the deposited data

Results flagged for a closer look

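The effect of sham surgery at days 4 and 7 differed between TEC and nonTEC, by a test of the difference itself, for 170 genes (limma, adjusted p under 0.05). The 5 largest in each direction are given, as TEC minus nonTEC on the log2 scale. Klk1b27 differed by 3.48 ± 0.90 (1.995 in TEC and -1.48 in nonTEC), with 1 unoperated nonTEC array at 8.22 and the other 7 nonTEC arrays between 4.40 and 5.24. The secreted protease inhibitor gene Wfdc2 differed by 2.17 (0.30 and -1.87), Apol11b by 2.08 (0.45 and -1.63), Gp2, a glycoprotein of secretory and M cells, by 2.01 (0.71 and -1.31) and Serpinb2 by 1.98 (1.39 and -0.59). For Wfdc2 and Apol11b most of the difference lay in nonTEC. In the other direction Exosc2 differed by -2.52 (-2.15 and 0.37), Islr by -1.71 (-0.18 and 1.53), Col7a1 by -1.56 (-1.35 and 0.21), the DNA repair factor gene Paxx by -1.53 (-0.20 and 1.32) and Atn1 by -1.51 (-0.82 and 0.69). Islr was at 4.38 to 5.72 in the TEC arrays compared, below the median of all values, so its difference is one of nonTEC, where it was at 6.17 to 7.01 unoperated and 7.29 to 8.68 after sham surgery. In all, Exosc2, Col7a1, Atn1, Klk1b27 and Serpinb2 had the larger size of effect in TEC, and Wfdc2, Apol11b, Gp2, Islr and Paxx in nonTEC. The cause of these differences was not tested.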

How the results depend on the processing

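The count of genes called for sham surgery, 247, was 157 with no filter on dim probes, 1714 with array weights, 0 with only the 9 arrays compared, 1363 without 4 TEC arrays that stand apart (unoperated 3, castrated day 4 arrays 2 and 3, sham day 4 array 3), 457 with day 20 averaged in, 457 over all 41 arrays, 413 and 398 with the thymocyte or fibroblast mean as a covariate, 2 at day 7 alone and, in an alternative chosen after seeing the data, 10 without the day 20 arrays. Leaving out 1 array gave 3 to 971. The share of rises, 31.6%, was 52.3% with array weights, 60.9% without the 4 arrays and 66.0% without unoperated array 3. The stricter filter, quantile normalization, median centring, the mean of probes, no trend and a robust trend gave 240 to 253. Similar counts were not all of the same genes. Of the 247, 171 were also called with the mean of probes, 205 with the stricter filter and 223 to 247 with the rest of these. Array weights called 195 of the 247, and day 20 averaged in 86. For day 7 minus day 4, with 0 called, the count was 1 with no filter, 25 with array weights and 0 to 10 without 1 array. For TEC minus nonTEC, 170, it was 366 with array weights, 1 with only the arrays compared, 608 without the 4 arrays, 46 without the day 20 arrays and 30 to 617 without 1 array. Same-numbered arrays of the 3 groups had correlated deviations above 0.1 in 5 of 9 pairs (range -0.413 to 0.416). Between sham day 4 and sham day 7 they were 0.191, 0.123 and 0.155. With 3 arrays per group this cannot decide whether the numbers pair the arrays. With the replicate number as a block 346, 0 and 249 genes were called. Psmb11 (0.11) and Ly75 (0.052), uncalled, changed sign with array weights (-1.31 and -0.76), and Aire (-0.05) without the 4 arrays (0.39). The cause was not tested. The spread of the 3 unoperated arrays limits what can be called.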
